A study of Homo sapiens with 12 samples.

Results

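The comparison set 3 libraries of the non-targeting control named NT2 against 3 libraries of the non-targeting control named NT1. Both groups carry the same label, the human non-small cell lung cancer line H1299 grown as spheroids and given a non-targeting short hairpin RNA (genotype NT). H1299 is an established line from a lymph node metastasis of a lung carcinoma. NT1 is the control of a knockdown of PRKCI (PRKCI_KD, 3 libraries) and NT2 the control of a knockdown of SOX2 (SOX2_KD, 3 libraries), so the controls account for 6 of the 12 libraries of the study. Of 57162 entries with a name of their own, the 18717 that reached 0.5 RPKM (reads scaled to the length of the gene and the depth of the library) in at least 3 of the 6 control libraries were compared. At that limit CTSH lay just inside, with 0.5005 RPKM as its deciding value, and NEUROG2 just outside, with 0.4998 RPKM. Libraries of NT1 and PRKCI_KD were read on 1 flow cell, in lane 8, and those of NT2 and SOX2_KD on another, in lane 7, so the control group, its flow cell and anything else that differed between the 2 experiments cannot be told apart. The labels do not say whether libraries of 1 group came from separate cultures, infections or clones, and p-values then measure only the spread between these libraries.

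A non-targeting hairpin is carried into cells by the same lentiviral vector as a knockdown hairpin but matches no intended transcript. It gives the level from which a knockdown is read, and a control belongs to the cells it was made in. PRKCI encodes the atypical protein kinase C iota and SOX2 a transcription factor of stem and squamous cells, and both are found at 3q26. Growth as floating spheroids is used to enrich tumour cells with stem-like properties.

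The libraries stood apart by control group before any gene was tested. The Pearson correlation of log2(RPKM + 1) across genes was 0.987 to 0.996 within NT1 and 0.993 to 0.997 within NT2, but 0.815 to 0.824 between an NT1 and an NT2 library. Each control lay closer to its own knockdown, with 0.963 to 0.973 for NT1 with PRKCI_KD and 0.988 to 0.993 for NT2 with SOX2_KD. A gene typically differed by 0.0814 to 0.170 on the log2 scale between libraries within NT1, by 0.0468 to 0.130 within NT2 and by 0.544 to 0.578 between the groups (medians of the absolute difference). The read total behind each control library, as recovered from the deposited values, ran from 77104553 to 118961859 reads.

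By limma on log2(RPKM + 1), with Benjamini-Hochberg adjustment over all 18717 genes, 14347 genes (76.7%) passed an adjusted p of 0.05. Of these, 6646 (35.5% of genes tested) were higher and 7701 (41.1%) lower in NT2. At least 2-fold differences on this scale were found in 4388 genes (23.4%), 1877 higher (10.0%) and 2511 lower (13.4%). With 0.1 RPKM added in place of 1 RPKM, 6860 genes were at least 2-fold apart, and with 5 RPKM 1631. A 16-fold difference was passed by 30 genes higher and 81 lower in NT2. All 3 NT2 libraries lay above all 3 NT1 libraries in 6813 genes (36.4%) and below them in 7884 (42.1%). The added 1 RPKM understates the difference of genes with low values, and a permutation test of a single gene with 3 against 3 libraries cannot go below p = 0.1. The level filter also contributes calls by construction, since 1768 genes passed it in NT1 alone and 896 in NT2 alone, and 2660 of those were called. Among the 14925 genes at 0.5 RPKM or more in all 6 control libraries, 11002 (73.7%) were called and 2859 (19.2%) were at least 2-fold apart. At the other end, 5233 genes (28.0%) had a 95% confidence interval of the log2 difference that lay within -0.5 and 0.5.

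**Figure D1:**
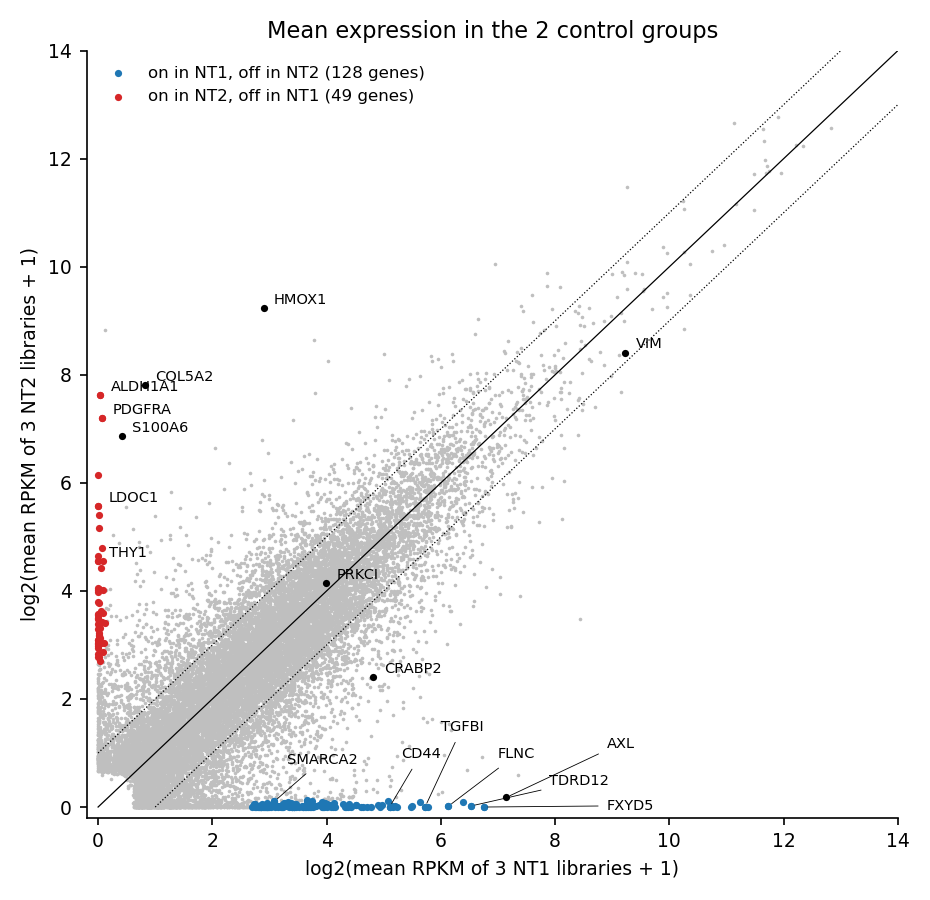
The mean RPKM of the 3 NT2 libraries (vertical axis) against that of the 3 NT1 libraries (horizontal axis), both as log2(mean + 1). Each point is 1 of the genes compared, with those of chromosome Y and XIST left out. Dotted lines mark a 2-fold difference. Genes along either axis, such as ALDH1A1 and PDGFRA at the NT2 side and AXL and FXYD5 at the NT1 side, were near 0 in the other control.

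Many genes were present in 1 control and near absent in the other. Under a rule of 5 RPKM or more in all 3 libraries of a group and under 0.1 RPKM in all 3 of the other, 128 genes (0.684%) were on in NT1 alone, 88 of them protein coding, and 49 (0.262%) in NT2 alone, 33 of them protein coding. No read at all was counted in the 3 NT2 libraries for 37 of the 128, nor in the 3 NT1 libraries for 12 of the 49. The mean level in the group that had the gene was 10.7 RPKM for the median NT1 gene and 9.75 RPKM for the median NT2 gene. The X chromosome held 8 of the 99 placed NT1 genes and 8 of the 42 placed NT2 genes, beside 3.69% of all placed genes tested. Because the rule is made of the values that were compared, these counts are a description and carry no further test. They move with the limit, since 2 RPKM in place of 5 gave 294 and 112 genes. For genes that reached the level filter through 1 group alone the log2 difference is given with its SE and no p-value.

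The promoters of 4 of these genes show the sequence at the start of genes read in 1 control alone. They belong, in each direction, to the 2 protein-coding genes highest in level that have 1 listed start. Each runs from 250 bases before to 50 bases after the start of the gene in RefSeq (build GRCh38.p14), 5′ to 3′ on the strand of the gene, with every CG pair in capitals. FXYD5 (chr19:35154485-35154784, plus strand) and TDRD12 (chr19:32719517-32719816, plus strand) were on in NT1 alone, while ALDH1A1 (chr9:72953004-72953303, minus strand) and LDOC1 (chrX:141177080-141177379, minus strand) were on in NT2 alone.
FXYD5: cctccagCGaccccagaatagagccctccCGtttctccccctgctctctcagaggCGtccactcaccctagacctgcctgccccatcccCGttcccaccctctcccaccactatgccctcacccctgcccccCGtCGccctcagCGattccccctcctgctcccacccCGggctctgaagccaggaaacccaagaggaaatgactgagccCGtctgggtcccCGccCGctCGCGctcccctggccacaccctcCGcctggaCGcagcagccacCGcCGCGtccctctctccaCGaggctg
TDRD12: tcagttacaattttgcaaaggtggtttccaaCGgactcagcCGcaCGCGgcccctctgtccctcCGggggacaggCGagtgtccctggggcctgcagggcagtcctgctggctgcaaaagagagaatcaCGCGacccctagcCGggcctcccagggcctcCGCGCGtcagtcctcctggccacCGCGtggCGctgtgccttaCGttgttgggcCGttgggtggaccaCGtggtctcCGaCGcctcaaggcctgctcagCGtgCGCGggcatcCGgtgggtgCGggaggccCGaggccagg
ALDH1A1: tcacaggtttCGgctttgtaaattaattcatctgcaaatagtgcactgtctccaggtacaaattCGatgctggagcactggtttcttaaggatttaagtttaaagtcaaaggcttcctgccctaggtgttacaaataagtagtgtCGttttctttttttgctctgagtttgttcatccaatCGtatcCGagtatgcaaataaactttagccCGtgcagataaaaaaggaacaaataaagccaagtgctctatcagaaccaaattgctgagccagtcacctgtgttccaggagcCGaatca
LDOC1: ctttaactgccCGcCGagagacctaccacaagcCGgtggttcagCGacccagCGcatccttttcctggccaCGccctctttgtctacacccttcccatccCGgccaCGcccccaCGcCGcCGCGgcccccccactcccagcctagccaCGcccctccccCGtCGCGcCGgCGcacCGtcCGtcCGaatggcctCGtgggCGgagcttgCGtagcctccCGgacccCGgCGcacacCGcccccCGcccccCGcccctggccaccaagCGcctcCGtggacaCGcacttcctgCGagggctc
The windows held 19 CG pairs for FXYD5, 26 for TDRD12, 7 for ALDH1A1 and 34 for LDOC1. Over all 27305 genes with a listed promoter the median was 14, and 57.4% held 10 or more. Over the 4640 protein-coding ones at 5 RPKM or more in all 6 control libraries the median was 27, and 97.5% held 10 or more. Over the 9764 protein-coding genes tested that had a listed promoter it was 26, and 92.9% held 10 or more. A comparison of the on-off genes by CG content was void, because a promoter was listed for 73.9% of the 88 NT1 genes and 75.8% of the 33 NT2 genes that code for protein, under the 80% needed. The windows describe the reference genome, and methylation was not analysed here.

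FXYD5, a membrane protein that modulates the sodium pump and lowers cell adhesion, gave 121, 111 and 88.0 RPKM in NT1 and 0 in each NT2 library. Set against a floor of 3 reads per library, it was at least 9673-fold lower in NT2. TDRD12, a germline protein of the piRNA pathway, gave 87.4, 89.4 and 96.8 RPKM in NT1 and 0.0140, 0.0183 and 0.00740 RPKM in NT2 (log2 difference -6.51, SE 0.07). As the on-off rule requires, the groups did not overlap for either gene. TGFBI, a matrix protein induced by TGF-beta, gave 57.6, 50.4 and 47.7 RPKM in NT1 and 0 in NT2, at least 12269-fold lower against the same floor. FLNC, the filamin of muscle, gave 77.1, 78.6 and 51.5 RPKM in NT1 and 0.00940, 0.00887 and 0.0126 RPKM in NT2 (log2 difference -6.09, SE 0.16). NT1 replicate 3 was the lowest of the NT1 libraries for FXYD5, TGFBI and FLNC, and still far above every NT2 library.

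In the other direction, ALDH1A1, a retinaldehyde dehydrogenase used as a marker of stem-like tumour cells, gave 0.0118, 0.0296 and 0.0430 RPKM in NT1 and 187, 201 and 201 RPKM in NT2 (log2 difference 7.58, SE 0.06). That is 4, 8 and 12 reads in NT1 against 48828, 62499 and 44173 in NT2. LDOC1, a gene derived from a retrotransposon, gave 0, 0.00762 and 0 RPKM in NT1 and 52.5, 43.8 and 44.0 RPKM in NT2 (log2 difference 5.57, SE 0.09). The difference in ALDH1A1 was the second highest of all genes tested. BARX1, a homeobox factor of the embryonic stomach and teeth, gave at most 0.0189 RPKM in NT1 and 31.2 to 42.5 RPKM in NT2. THY1, a surface glycoprotein of fibroblasts and neurons, gave at most 0.00355 RPKM in NT1 and 20.9 to 24.5 RPKM in NT2, and its locus overlaps USP2-AS1 on the other strand. CT83, a cancer-testis gene of the X chromosome, gave 0 in NT1 and 9.76 to 10.7 RPKM in NT2.

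**Figure D2:**
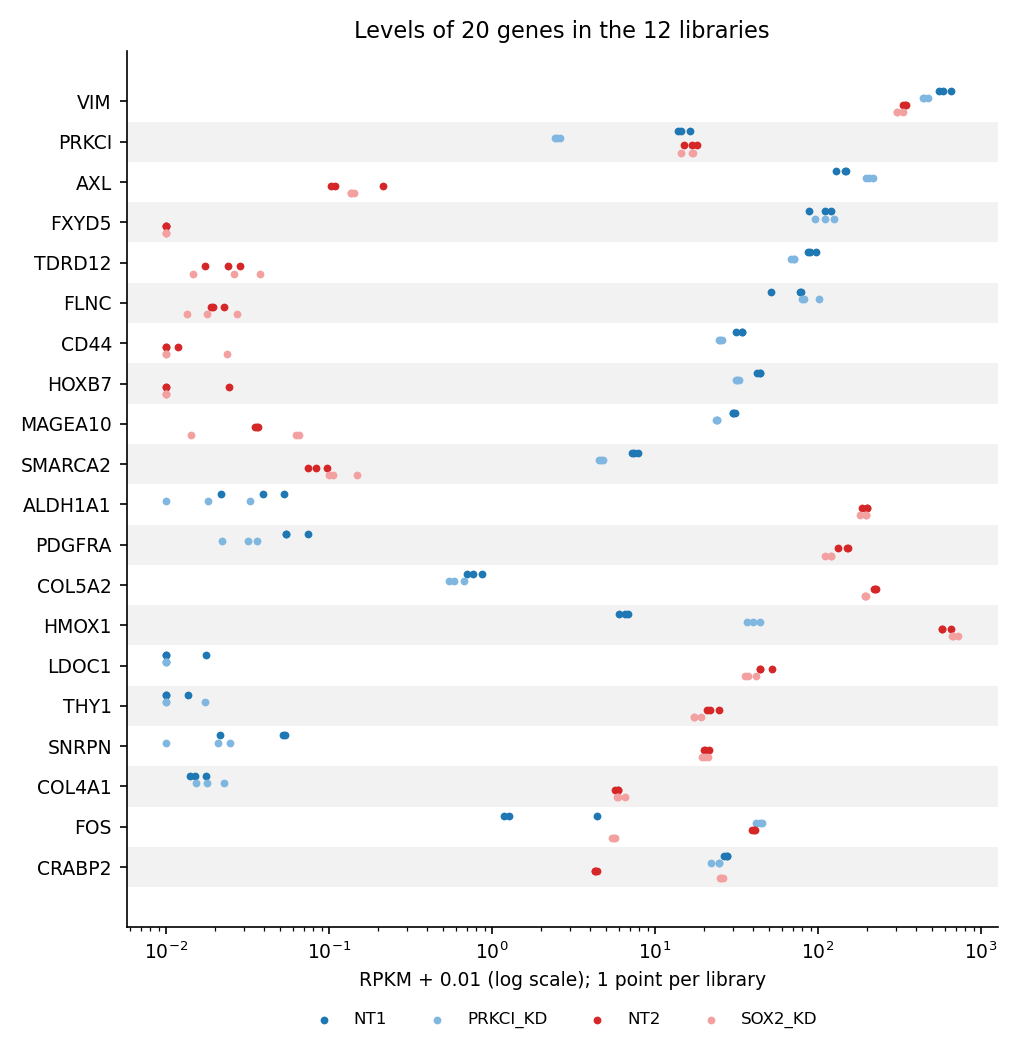
Levels of 20 named genes in all 12 libraries (RPKM + 0.01, log axis), 1 point per library, coloured by group. For most genes each knockdown sits with its own control and far from the other pair, while PRKCI overlaps between NT1 and NT2, VIM is abundant in all, and FOS, HMOX1, CRABP2 and the targeted PRKCI also differ between a knockdown and its control.

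Of the other genes at the ends of the scale, AC098587.1, an entry beside PDGFRA, had the largest log2 difference of all. It gave 0.122, 0.153 and 0 RPKM in NT1 and 433, 457 and 464 RPKM in NT2. Its values resolved to a length of 69 bases, under the 101 bases of a read. Its RPKM is thus high for its number of reads, 2741, 3449 and 2470 in NT2. COL5A2, a chain of type V collagen, gave 0.855, 0.749 and 0.687 RPKM in NT1 and 221, 225 and 226 RPKM in NT2 (log2 difference 6.99, SE 0.06, limma adjusted p = 2.5e-09). HMOX1, the inducible haem oxygenase, gave 5.97, 6.82 and 6.57 RPKM in NT1 and 657, 579 and 575 RPKM in NT2, a ratio of means of 93.5. The calcium-binding S100 proteins went in opposite directions. S100A6 gave 0.0432, 0.0433 and 0.913 RPKM in NT1 and 111 to 120 RPKM in NT2, while S100A11 gave 157 to 170 RPKM in NT1 and 0.267 to 0.736 RPKM in NT2. AXL, a receptor tyrosine kinase of mesenchymal and drug-tolerant cells, gave 147, 146 and 129 RPKM in NT1 and 0.0931, 0.204 and 0.0981 RPKM in NT2 (log2 difference -6.97, SE 0.08). It was the lowest log2 difference of the 18717 with 1 RPKM added. Its ratio of means, NT1 over NT2, was 1069, below the at least 12269-fold of TGFBI. MDK, a secreted growth factor, and CLIP3, a microtubule-linked protein, were also among the 10 lowest, with log2 differences of -5.79 and -5.76.

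The labelled line was set against genes known for it. For H1299, SMARCA4 and CDKN2A were listed as lost, and NRAS as mutated and present. Both groups gave reads for SMARCA4 and CDKN2A, and protein was not analysed here. SMARCA2 and SMARCA4, the alternative motors of the SWI/SNF chromatin remodeller, gave 7.24 to 7.82 and 2.35 to 3.07 RPKM in NT1 but 0.0643 to 0.0871 and 4.89 to 5.58 RPKM in NT2. SMARCA2 was thus near absent from NT2 (log2 difference -2.98, SE 0.06), and SMARCA4 was higher there (0.71, SE 0.09, limma adjusted p = 0.00024). CDKN2A, which codes for the cell cycle inhibitor p16 and for ARF, gave 32.7, 24.8 and 21.5 RPKM in NT1 and 40.9, 31.3 and 30.3 RPKM in NT2. The groups overlapped, and limma gave an adjusted p of 0.078. NRAS, a small GTPase of the RAS family, passed narrowly (log2 difference 0.27, SE 0.11, limma adjusted p = 0.046) with overlapping groups, and lost the call under several alternatives. Whether either group carries a mismatched label was not tested, and the values are given under the labels as they stand.

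Of 17 mesenchymal genes tested from a list of 20, 14 were lower and 2 higher in NT2, with 9 and 2 at least 2-fold apart, and the median log2 difference was -2.37 beside -0.05 over all genes. Over all genes tested 41.1% were lower and 35.5% higher, 13.4% and 10.0% by at least 2-fold, and the counts of this and the following lists are to be read against those shares and against the 76.7% called in either direction. CD44, the hyaluronan receptor, gave 34.3, 31.4 and 34.4 RPKM in NT1 and 0, 0.00182 and 0 RPKM in NT2. FN1, fibronectin, had a log2 difference of -4.46, CDH2, N-cadherin, of -3.10, and ZEB2, a repressor of E-cadherin, of -2.37, all past the threshold. TNC and SPARC, matrix glycoproteins, were on in NT1 alone, with 29.4 to 35.8 and 10.9 to 12.6 RPKM. Among the 2 that were higher was SNAI1, another repressor of E-cadherin, with a log2 difference of 2.22. VIM, the intermediate filament vimentin, stayed abundant in both, at 554 to 657 RPKM in NT1 and 334 to 345 RPKM in NT2 (log2 difference -0.81). Of the 17 genes, 4 were on in NT1 alone. They reached the level filter through NT1, so their direction was fixed by it. The same holds for AXL, also of this list, at 0.0931 to 0.204 RPKM in NT2. It holds as well for other members, here and in the following lists, that reached the filter through 1 group alone.

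Of 23 listed epithelial genes 7 were tested, 3 higher and 4 lower in NT2, with a median of -0.82. CDH1, E-cadherin, stayed under the filter with at most 0.0678 RPKM in any control library. CLDN1, a tight junction protein, was higher (2.56 to 3.41 against 24.1 to 27.1 RPKM), as was DSP, desmoplakin (log2 difference 2.17), while CLDN3 and KRT8 were lower (-1.53 and -1.43). Several epithelial genes under the filter were highest in NT1 replicate 3, among them EPCAM at 0.555 RPKM beside 0.113 and 0.242 RPKM in the other NT1 libraries, and KRT19 at 0.620 RPKM beside 0.0863 and 0.108 RPKM. S100A6 in that library, 0.913 RPKM beside 0.0432 and 0.0433 RPKM, followed the same order. Without that library 14500 genes passed the threshold and 4436 of them were at least 2-fold apart.

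Apart from the neural and neuroendocrine list, markers of other cell types were mostly low in both groups. The 9 endothelial genes stayed under the filter, and of 10 immune genes in the files CD68 alone was tested, a lysosomal protein also made by tumour cells (log2 difference -0.62). The summed level of the immune list was 27.7 to 32.5 RPKM in NT1 and 17.6 to 20.4 RPKM in NT2, nearly all of it CD68, and CD3E was at 0 in all 6 libraries. Of 16 airway and alveolar genes in the files, 4 were tested, 2 higher and 1 lower, with NKX2-1, the lung lineage factor, at 0.306 to 0.343 RPKM in NT1 and 0.618 to 0.789 RPKM in NT2. Squamous genes gave 1 higher and 3 lower of 4 tested, and TP63, the master regulator of squamous cells, was at most 0.0409 RPKM. Of 10 neural and neuroendocrine genes tested, 7 were lower and 3 higher (median -1.20). SNAP25, a protein of synaptic vesicle fusion, gave 4.85 to 7.12 RPKM in NT1 and 0.117 to 0.133 RPKM in NT2. The summed level of that list was 246 to 254 RPKM in NT1 and 257 to 283 RPKM in NT2. Fibroblast genes gave 2 higher, THY1 and FAP, and 3 lower of 5 tested, and COL1A1, the main fibroblast collagen, was at most 1.07 RPKM in any control library. The part of other cells in the differences was not tested beyond these levels.

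Among surface and self-renewal genes used to mark stem-like tumour cells, 10 of 14 tested were lower and 4 higher in NT2, 7 and 4 of them at least 2-fold. The 4 higher ones were ALDH1A1, ALDH1A3, THY1 and MYC. ALDH1A3, another retinaldehyde dehydrogenase, gave 0.0602 to 0.0728 RPKM in NT1 and 7.04 to 7.36 RPKM in NT2. SOX9, a factor of progenitor cells, gave 27.5, 21.8 and 24.9 RPKM in NT1 and 0.407, 0.446 and 0.412 RPKM in NT2 (log2 difference -4.17, SE 0.09). The widely used pair of markers CD44 and ALDH1A1 thus lay at opposite ends of the comparison. Over all 14 tested aldehyde dehydrogenases, 6 were higher and 6 lower, with a median of -0.03 that became 0.02 under quantile normalization and under median-of-ratios scaling.

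Receptor tyrosine kinases, which pass signals from growth factors, differed both ways, with 15 of 27 tested higher and 10 lower in NT2, 10 and 6 of them at least 2-fold. PDGFRA, the alpha receptor of platelet-derived growth factor on chromosome 4 (54229097 to 54298247, plus strand, GRCh38), gave 0.0440, 0.0638 and 0.0440 RPKM in NT1 and 133, 154 and 151 RPKM in NT2 (log2 difference 7.12, SE 0.07). The ratio of the means was 2879. All 4 fibroblast growth factor receptors were higher, with FGFR3 at 1.86 to 3.09 RPKM in NT1 and 21.6 to 26.1 RPKM in NT2, FGFR4 at a log2 difference of 2.22 and FGFR1 at 1.39. FGFR2 had a difference of 2.00, but its deposited values did not resolve into whole reads. EGFR and ERBB2, receptors of the epidermal growth factor family, differed by 1.22 and 1.13, and MET, the receptor of hepatocyte growth factor, by 0.31. Lower in NT2 beside AXL was EPHA5, an ephrin receptor, at 6.79 to 7.37 RPKM in NT1 and at most 0.00744 RPKM in NT2.

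The genes around PDGFRA at 4q12 did not share its difference in size. FIP1L1, a subunit of the polyadenylation complex, gave 5.36, 5.31 and 5.25 RPKM in NT1 and 66.9, 74.7 and 72.3 RPKM in NT2 (log2 difference 3.52, SE 0.07, limma adjusted p = 1.9e-08). CHIC2, between FIP1L1 and PDGFRA, gave 3.22 to 3.42 RPKM in NT1 and 8.37 to 10.2 RPKM in NT2 (log2 difference 1.21). FIP1L1 overlaps LNX1, whose own difference was 0.57. Of 16 tested genes of the band 11 were higher and 1 lower (75% called beside 76.7% over all genes), with a median of 0.60, and KDR stayed under the filter in both groups. In the neighbouring window of 40 to 50 megabases the median was -0.97, but it became 0.14 when the windows were shifted by 5 megabases.

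HOX genes, which set position along the body axis and whose pattern cells keep in culture, are held in clusters named A to D. Of 27 tested, 15 were lower and 9 higher in NT2, 11 and 1 of them at least 2-fold, with a median of -0.36. All 9 tested HOXB genes were lower and all 3 HOXD genes higher, while HOXA gave 3 higher and 3 lower of 9 and HOXC 3 higher and 3 lower of 6. No difference between clusters was tested. HOXB2, HOXB7 and HOXA7 were under 0.5 RPKM in every NT2 library. They reached the level filter through NT1, so their direction was fixed by it. HOXB2 gave 68.5, 60.0 and 62.1 RPKM in NT1 and 0.280, 0.160 and 0.216 RPKM in NT2 (log2 difference -5.73, SE 0.08), and HOXB7 gave 42.5 to 44.0 RPKM in NT1 and at most 0.0143 RPKM in NT2. HOXB3 and HOXB4 followed with -4.01 and -4.51. HOXA7 was also near absent from NT2 (7.22 to 8.54 against at most 0.0323 RPKM), whereas HOXA3 was higher there, with a difference of 1.73. The HOXD genes differed by 0.63 to 0.95. Neighbouring HOX entries overlap each other and their antisense entries, and the strand setting of the counting is not given in the sources used here, so reads may be divided between them.

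Other lineage factors split almost evenly, 29 higher and 25 lower of 57 tested, so that 94.7% were called beside 76.7% over all genes. SIX3, a factor of the forebrain and eye, gave 0.0466 to 0.0709 RPKM in NT1 and 10.1 to 13.1 RPKM in NT2, and FOXF2, a forkhead factor of mesenchyme, at most 0.0384 against 6.89 to 8.88 RPKM. TBX18, a T-box factor of the epicardium and ureter, gave 9.80 to 9.89 RPKM in NT1 and at most 0.00901 RPKM in NT2. SOX4, a relative of SOX2, gave 43.9 to 60.7 RPKM in NT1 and 4.42 to 4.79 RPKM in NT2.

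Cancer-testis genes are read in germ cells and some tumours and are silent in most other adult tissues. They gave 5 higher and 10 lower of 19 tested. The share called was 78.9%, near the 76.7% over all genes, but 63.2% were at least 2-fold apart beside 23.4%. PASD1 gave 14.1 to 15.6 RPKM in NT1 and 0 in NT2, and MAGEA10 29.9 to 31.0 against at most 0.0268 RPKM. GAGE2A gave 40.6, 47.3 and 73.0 RPKM in NT1 and 0 in NT2, but GAGE and MAGE genes are families of near-identical copies among which reads may be divided. Higher in NT2 were CT83, MAGEA1 (log2 difference 3.57) and 3 others, DDX43, CT45A1 and CT45A5. MAGEA4 did not pass, with means of 156 and 168 RPKM. Imprinted genes, normally read from the copy of 1 parent, gave 5 higher and 11 lower of 19 tested (84.2% called). Of the 19, 52.6% were at least 2-fold apart. SNRPN gave 0.0115 to 0.0433 RPKM in NT1 and 19.9 to 21.3 RPKM in NT2, GRB10 at most 0.00169 against 5.99 to 6.21 RPKM, and PEG10 156 to 176 against 12.8 to 14.6 RPKM. Writers and erasers of DNA methylation and Polycomb genes gave 3 higher and 9 lower of 18 tested (66.7% called), none of the higher ones by 2-fold. TET1, TET2 and TET3, which oxidise methylcytosine, had log2 differences of -1.45, -1.05 and -1.39, and DNMT3A, a methyltransferase, of -1.36, while DNMT1, the maintenance enzyme, did not pass (means of 24.6 and 22.6 RPKM).

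Among matrix and adhesion genes, collagen chains gave 6 higher and 9 lower of 17 tested (median -0.30), 88.2% called beside 76.7% over all genes. The paired chains of basement membrane collagen, COL4A1 and COL4A2, gave at most 0.00748 and 0.00703 RPKM in NT1 and 5.67 to 5.93 and 6.11 to 7.42 RPKM in NT2, and these entries overlap. COL6A1, of type VI collagen, gave 42.0 to 63.8 RPKM in NT1 and 4.07 to 5.17 RPKM in NT2. Integrins and laminins gave 8 higher and 12 lower of 22 tested (90.9% called). LAMB3, a chain of laminin-332, was lower (-3.66), and LAMC3 was higher (2.95). Keratins gave 2 higher and 3 lower of 5 tested.

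Genes of sterol and fatty acid synthesis stood higher in NT2, 19 of 22 tested, with 13 at least 2-fold and 1 lower, and a median of 1.24, where 35.5% of all genes were higher and 10.0% by at least 2-fold. HMGCS1, the synthase at the head of the mevalonate pathway, gave 28.8, 32.3 and 38.7 RPKM in NT1 and 215, 249 and 253 RPKM in NT2 (log2 difference 2.81, SE 0.12, limma adjusted p = 5.3e-07). ACLY, which makes cytosolic acetyl-CoA, gave 47.8 to 49.9 against 246 to 255 RPKM. NSDHL and MSMO1, enzymes of late cholesterol synthesis, differed by 2.23 and 1.91. LSS, lanosterol synthase on chromosome 21, was the exception that was lower (-0.68), and SREBF1, a regulator of the pathway, did not pass (means of 65.7 and 49.0 RPKM).

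Genes known as targets of hypoxia and of glycolytic control gave 18 higher and 3 lower of 22 tested, with 13 and 1 at least 2-fold and a median of 1.14, beside 35.5% higher and 41.1% lower, 10.0% and 13.4% at least 2-fold, over all genes. SLC2A3, a glucose transporter, gave 9.52, 9.37 and 9.92 RPKM in NT1 and 136, 147 and 144 RPKM in NT2 (log2 difference 3.76, SE 0.06, limma adjusted p = 1.4e-08). BNIP3, a mitophagy receptor, differed by 2.96, and PFKFB4 and PFKFB3, which set fructose 2,6-bisphosphate, by 2.52 and 2.42. CA9, the carbonic anhydrase often used as a hypoxia marker, was lower instead, with means of 1.29 RPKM in NT1 and 0.0151 RPKM in NT2. Among the knockdowns, SLC2A3 had a mean of 126 RPKM in PRKCI_KD and 208 RPKM in SOX2_KD, so that NT1 alone of the 4 groups was low. Oxygen and medium are not given in the labels for either control, and their part was not tested.

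Targets of the antioxidant factor NRF2 gave 11 higher and 4 lower of 17 tested, 88.2% called beside 76.7% over all genes. Beside HMOX1, TXNRD1, a thioredoxin reductase, gave 28.4 to 34.6 RPKM in NT1 and 299 to 354 RPKM in NT2, and NQO1, a quinone reductase, 61.8 to 66.7 against 280 to 287 RPKM. ME1, malic enzyme, gave 3.89 to 4.71 RPKM in NT1 and 0 in NT2. Glutathione transferases gave 7 higher and 3 lower of 11 tested (90.9% called), with GSTP1, the main transferase of many tumours, at 35.6 to 39.6 against 101 to 123 RPKM. AP-1 and immediate-early genes gave 12 higher and 4 lower of 18 tested (88.9% called). FOS gave 1.18, 1.26 and 4.39 RPKM in NT1 and 40.9, 39.2 and 40.2 RPKM in NT2, and NT1 replicate 3 was the highest of its group. JUN, the partner of FOS, had means of 25.8 and 26.3 RPKM and did not pass. Of the metallothioneins, which bind zinc and copper, 3 of 4 tested were higher and MT2A was lower (-1.64).

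Among signalling pathways, Wnt genes gave 9 higher and 15 lower of 27 tested, 88.9% called beside 76.7% over all genes, and the Wnt targets AXIN2 and TCF7 were lower (-2.25 and -2.20). Hedgehog genes gave 4 higher and 9 lower of 15 (86.7% called), with the co-receptor BOC at 16.3 to 22.5 RPKM in NT1 and 0.0213 to 0.0452 RPKM in NT2. GLI3, whose processed form represses the pathway, was lower (-1.92), and GLI1, an activator and target of it, was higher (1.59) in values that did not resolve into whole reads. Notch genes gave 9 higher and 7 lower of 16, with HES4 and HEYL, transcriptional targets, at 0 in NT2, and the ligand JAG1 lower (-1.96). YAP and TEAD genes gave 6 higher and 11 lower of 17, where CTGF was higher (3.26) and NT5E lower (-2.85). Interferon-stimulated genes gave 8 higher and 15 lower of 24 (95.8% called). In that family IFI6 was lower (-2.64) and IFITM1 higher (2.52), and IFITM1 overlaps IFITM2. Of 22 antigen presentation genes listed 2 were tested, and NLRC5, a regulator of class I genes, was lower (-0.81).

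Among genes used by every dividing cell, 18 of 35 cell cycle genes were higher and 5 lower, and 2 (5.71% beside 23.4% over all genes) reached 2-fold, MCM5 (1.44) and AURKB (1.18). MKI67, the usual proliferation marker, did not pass, with means of 24.4 and 20.7 RPKM. Ribosomal protein genes gave 21 higher and 4 lower of 30, with 26.7% at least 2-fold apart, and proteasome genes 17 higher and 6 lower of 28. The lowest differences in those families were RPS19 at -1.23, PSMC4 at -1.31 and PSMD8 at -1.23, and all of these genes lie between 30 and 50 megabases on chromosome 19, among windows that were low in NT2. Genes of the mitochondrial genome gave 3 higher and 3 lower of 13, none by 2-fold, with MT-CO3 at 0.68 and MT-ND6 at -0.54.

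**Figure D3:**
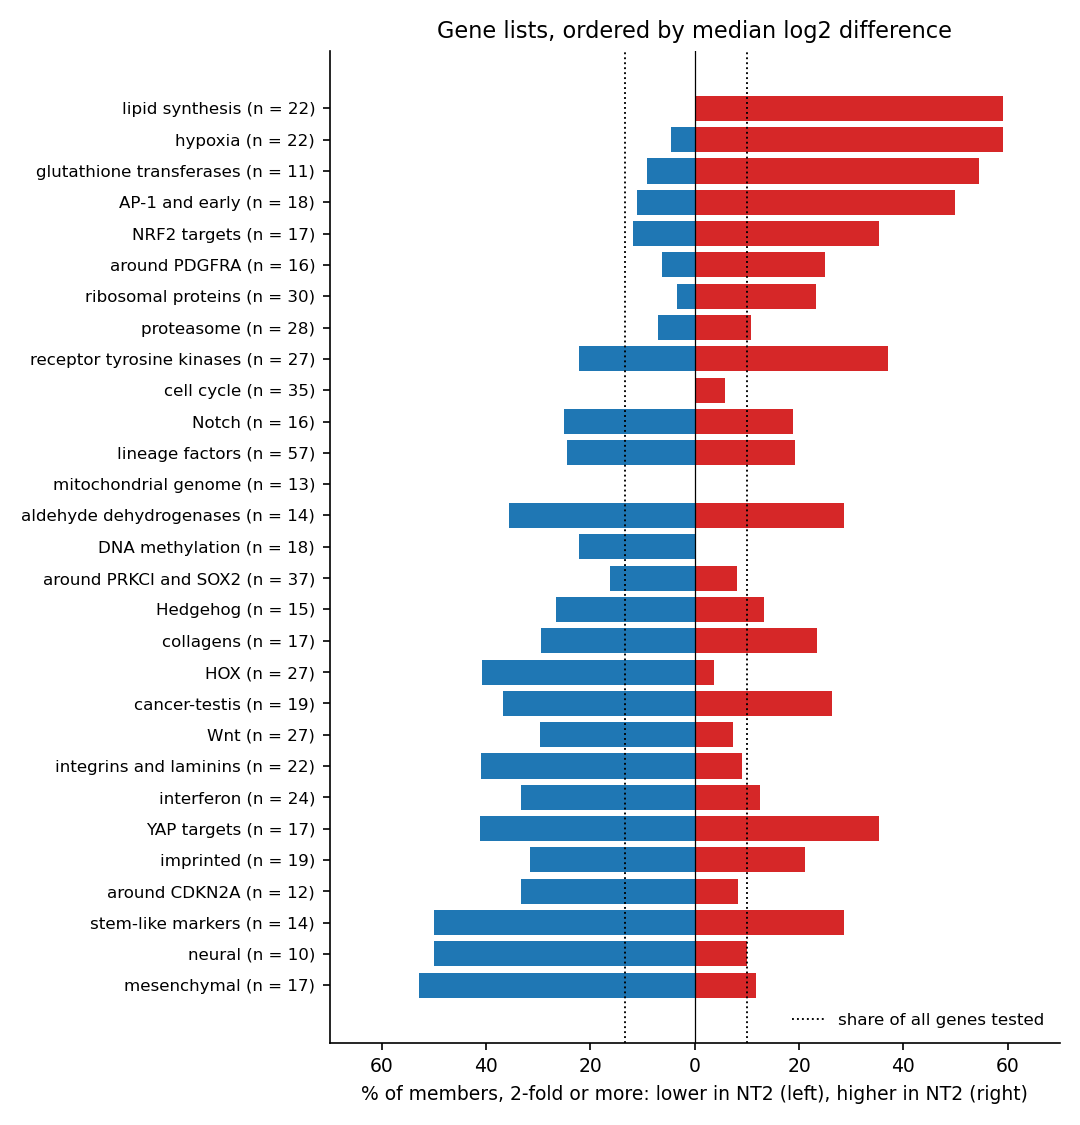
Bars give the percent of the tested members (n) of each gene list shown that were called and at least 2-fold lower in NT2 (left, blue) or higher in NT2 (right, red), with lists ordered by median log2 difference and dotted lines at the share of all genes tested. Lipid synthesis stands at the top with 13 of 22 higher and none lower, the mesenchymal list at the bottom with 9 of 17 lower, and the mitochondrial genome has no bar.

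Differences were not spread evenly along the chromosomes. In 293 windows of 10 megabases with at least 10 tested genes, the median log2 difference ranged from -1.23 to 1.55, and it was above 0.5 in 19 windows and below -0.5 in 42. The spread of a window's median between libraries (SD) was 0.0130 to 0.246. On the short arm of chromosome 5 the first 10 megabases had the highest median, 1.55, and 25 of 31 genes were at least 2-fold higher in NT2, none 2-fold lower. The next windows there had medians of 1.29 for 10 to 20, 1.24 for 30 to 40 and 0.81 for 40 to 50 megabases, and beyond the centromere the window of 50 to 60 megabases had -0.23. NSUN2, an RNA methyltransferase in the first of them, gave 10.7, 10.7 and 12.0 RPKM in NT1 and 88.4, 89.3 and 91.0 RPKM in NT2. CCT5, a chaperonin subunit nearby, differed by 2.42, and in the window of 30 to 40 megabases lay the cytokine receptors IL7R, LIFR and OSMR, with differences of 4.02, 3.80 and 3.00. The first 10 megabases of chromosome 10 had a median of 1.09.

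Chromosome 19 showed the reverse within part of its length. From 30 to 40 megabases 95 of 162 genes were at least 2-fold lower in NT2, with a median of -1.17 (SD 0.03), and from 40 to 50 megabases 102 of 246 were, with a median of -0.64. The window of 50 to 60 megabases had 0.15. AXL, FXYD5 and TDRD12 all lie in the low stretch, and yet their differences went far beyond its median. Other low windows were 20 to 30 megabases of chromosome 11 (-1.23), where MUC15, a membrane mucin, gave 18.0 to 20.1 RPKM in NT1 and 0 in NT2, and 70 to 80 (-1.22) and 60 to 70 megabases (-1.01) of chromosome 8. ZFHX4, a zinc finger homeobox factor, and NCOA2, a nuclear receptor coactivator, lie there and were lower (-3.61 and -2.72). Over whole chromosomes the medians were narrower, from -0.33 for chromosome 21 to 0.42 for chromosome 17. DNA copy number was not analysed here, and its part in these medians was not tested.

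**Figure D4:**
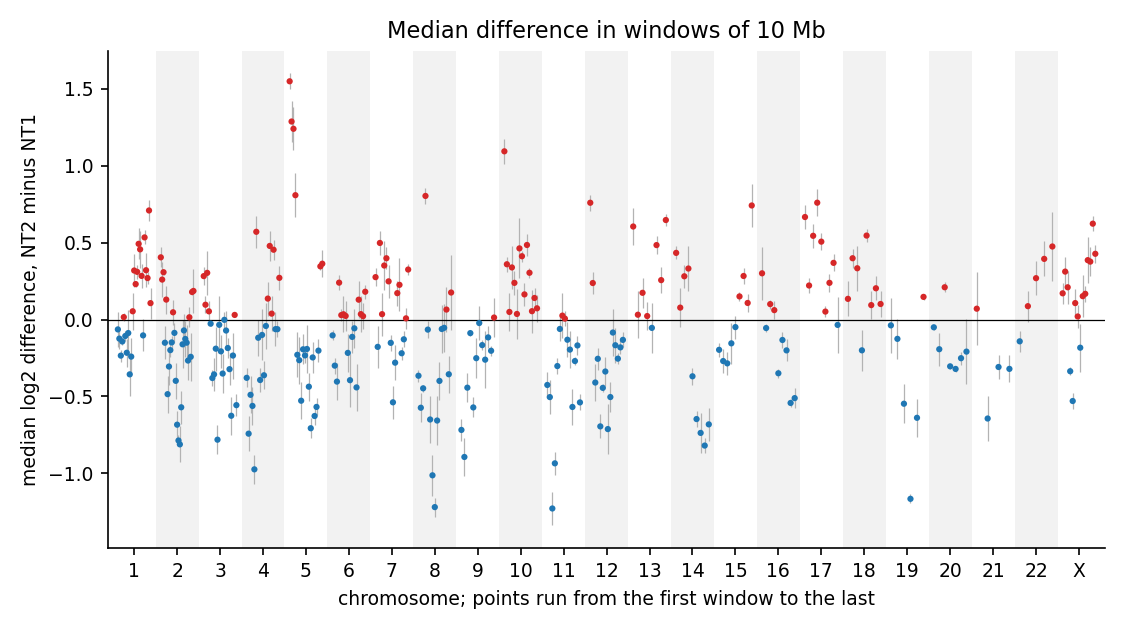
Each point is the median log2 difference, NT2 minus NT1 (red above 0, blue below), of the genes in a window of 10 megabases, in order along each chromosome, with a grey bar of 1 SD of that median between libraries. The short arm of chromosome 5 stands highest, at up to 1.55, and parts of chromosomes 8, 11 and 19 lowest, at down to -1.23.

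The same contrast can be read from the 6 knockdown libraries, which share none with the controls. Between SOX2_KD and PRKCI_KD, limma called 15190 of the same 18717 genes (81.2%), 4347 of them at least 2-fold apart (23.2%). These genes were chosen by their level in the control libraries, so a gene read only in the knockdowns could not enter. The shared counts below hold within this set. Of the 4388 genes at least 2-fold apart between the controls, 4349 had the same sign between the knockdowns and 39 the opposite one. The 3366 genes past both limits in the same direction were 76.7% of the control list and 77.4% of the knockdown list. Across genes the log2 differences had a Pearson correlation of 0.929, where genes are not independent and each side shares its flow cell with 1 knockdown. Within the same set, the on-off rule gave 129 genes on in PRKCI_KD alone and 49 in SOX2_KD alone. Of these, 101 and 42 were on the control lists. Of the 293 windows, 271 had a median of the same sign, with 1.45 for the start of chromosome 5 and -1.11 for 30 to 40 megabases of chromosome 19.

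By contrast, limma over all 12 libraries found 381 genes (2.04%) at least 2-fold apart between PRKCI_KD and NT1 and 16 (0.0855%) between SOX2_KD and NT2. With any size allowed, 8667 (46.3%) and 1592 (8.51%) were called. The largest median of any window was 0.373 in size for PRKCI_KD against NT1 and 0.132 for SOX2_KD against NT2. Some genes differed between the controls and moved within an experiment as well. FOS had a mean of 43.5 RPKM in PRKCI_KD and 5.55 RPKM in SOX2_KD, beside 2.28 and 40.1 RPKM in their controls, so its order between the knockdowns was the reverse of that between the controls. HMOX1 had a mean of 40.2 RPKM in PRKCI_KD and 686 RPKM in SOX2_KD.

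Some gene lists kept their place between the knockdowns and others did not. Between SOX2_KD and PRKCI_KD the median log2 difference of the mesenchymal list was -2.19, with 10 of 17 genes at least 2-fold lower in SOX2_KD and 2 higher, close to the -2.37 between the controls. That of the lipid synthesis list was 0.66, against 1.24, with 7 of 22 at least 2-fold higher and 1 lower. The hypoxia list had a median of -0.65 between the knockdowns and 1.14 between the controls, and 5 of its 22 genes were at least 2-fold lower in SOX2_KD and 1 higher. The AP-1 and early response list turned sign as well, from 0.82 between the controls to -0.84. The interferon list went from -0.44 to -1.79, with 16 of 24 at least 2-fold lower in SOX2_KD. The cell cycle list and the 13 genes of the mitochondrial genome, with medians of 0.25 and 0.03 between the controls, had medians of 1.04 and 1.05 between the knockdowns. No difference between these list medians was tested, and the contrast of the knockdowns holds 2 hairpins as well as 2 experiments, which cannot be told apart.

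**Figure D5:**
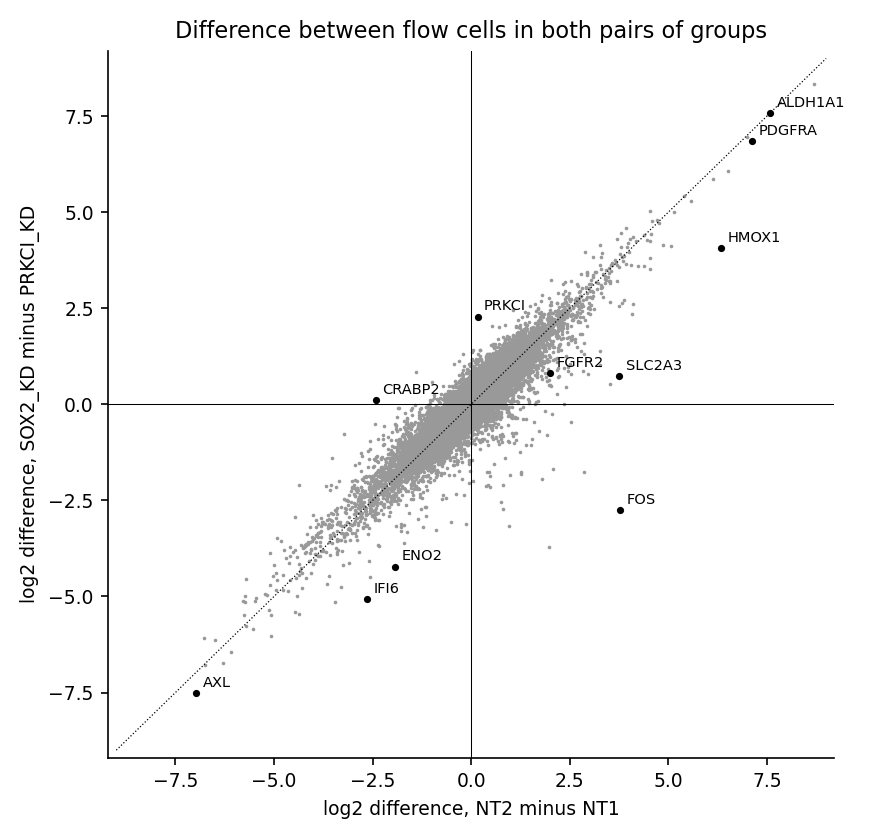
The log2 difference SOX2_KD minus PRKCI_KD (vertical axis) against NT2 minus NT1 (horizontal axis), each point 1 gene. Points follow the diagonal, with a Pearson correlation of 0.929 across genes, and FOS is among the 39 2-fold genes of opposite sign.

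PRKCI gave 13.8, 14.3 and 16.4 RPKM in NT1 and 15.1, 16.9 and 18.2 RPKM in NT2, overlapping ranges with a log2 difference of 0.16 (95% interval -0.06 to 0.38, limma adjusted p = 0.15). SOX2, in values that did not resolve into whole reads, gave 3.15, 2.98 and 2.91 RPKM in NT1 and 1.41, 1.48 and 1.55 RPKM in NT2. NT2 was lower in every library (log2 difference -0.69, SE 0.06, limma adjusted p = 2.8e-05), and SOX2 overlaps the transcript SOX2-OT. Of 37 tested genes of the surrounding region at 3q26, 11 were higher and 17 lower (median -0.20). The 75.7% called there, and the 24.3% at least 2-fold apart, were close to the 76.7% and 23.4% over all genes. Among them were MECOM, a zinc finger oncogene, at -2.48 and TNIK, a kinase of the Wnt pathway, at -3.56. At 9p21, around CDKN2A, 2 of 12 tested were higher and 8 lower (83.3% called), and CDKN2B, the neighbouring inhibitor, gave 17.5 to 21.0 RPKM in NT1 and 1.59 to 2.08 RPKM in NT2. CRABP2, a carrier of retinoic acid, gave 26.5, 27.5 and 27.7 RPKM in NT1 and 4.40, 4.29 and 4.26 RPKM in NT2. NES, the intermediate filament nestin, stayed under the filter, at 0.145 to 0.241 RPKM in NT1 and 0.334 to 0.443 RPKM in NT2.

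The smallest differences among genes at 100 RPKM or more in all 6 libraries were those of MT-ATP8, MT-TK, MT-TS2, MT-CYB and RP11-603J24.9, each at 0.00 to 2 decimals. They were not equally precise. MT-CYB, the cytochrome b of the respiratory chain, had an SE of 0.11 and MT-TS2, a mitochondrial serine transfer RNA, an SE of 0.37, with 403, 447 and 867 RPKM in NT1 and 334, 692 and 677 RPKM in NT2. RP11-603J24.9 gave 157 to 172 RPKM in NT1 and 154 to 168 RPKM in NT2 (SE 0.07). MT-TS2 had the largest SE of the 5. Under quantile normalization 4 of the 5 turned to lower, MT-ATP8 to -0.40 and MT-TK to -0.31, both then called (limma adjusted p = 0.0314 and 0.0404), MT-TS2 to -0.37 and MT-CYB to -0.27, neither called, while RP11-603J24.9 was called there too (limma adjusted p = 0.0157).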

How the data were processed

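Total RNA (120 ng per library) was sequenced after TruSeq RNA Sample Prep Kit v2 preparation, per the labels' protocols. Reads were aligned and counted with TopHat2 2.1, Bowtie 1.1.2 and featureCounts on GRCh38, per the submitters' processing notes, and the sources used here name neither a strand setting nor an annotation. The authors deposited RPKM per gene for 12 libraries, with no counts. Of 37051 entries above 0 in at least 3 libraries, 99.9% resolved into whole reads for every value above 0, at 1 length per entry. The tolerance was 0.001 reads and widened slightly with the number of reads. Of the genes tested, 19 did not resolve.

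Of 64253 entries, 7091 with repeated names or names turned into dates were left out. Genes at 0.5 RPKM or more in at least 3 of the 6 control libraries were tested with limma 3.58.1 (trend; R 4.3.3) on log2(RPKM + 1), adjusted by Benjamini-Hochberg. No covariate was used. The procedure was tested on simulated data. Symbols were placed through GENCODE 29 on GRCh38, older ones through RefSeq synonyms, and 14645 (78.2%) of the genes tested were placed. Tables were read with Python 3.11.15 and pandas 2.3.3.

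The members and the 40 gene lists were chosen with earlier results of these data known. Named are the reference genes of the line, the 10 highest and 10 lowest differences without overlap, the 10 highest on-off genes in each direction, up to 4 members of each list with the largest difference and its on-off members, the 3 leading genes of the 5 highest and 5 lowest windows, the 5 smallest differences at 100 RPKM or more, and PRKCI, SOX2, CRABP2 and NES. Other list members that are named were chosen after their values were seen. Genes of chromosome Y and XIST are not reported. Alternatives changed the pseudocount, level filter, scaling, libraries and block. Some genes and 1 gene list that the rules would name are not reported here.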

Additional observations from a re-analysis of the deposited data

How the results depend on the processing

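Across pseudocounts, level filters, scalings, a replicate block and a 12-library fit, 12750 to 17984 genes passed the threshold, the extremes being the filter of 1 RPKM (of 16410 tested) and no level filter (of 40664), and calls higher in NT2 made up 51.6% under quantile normalization beside 46.3% as reported. The 2-fold counts moved with the pseudocount, to 6860 (2927 higher, 3933 lower in NT2) at 0.1 RPKM and to 1631 (775 and 856) at 5 RPKM. Asking for 2 RPKM in place of 5 made 294 and 112 genes on in NT1 and NT2 alone. Leaving out 1 library in turn gave 13326 to 14500 calls (6111 to 6738 higher, 7194 to 7762 lower), 4354 to 4457 at 2-fold (1874 to 1922 and 2466 to 2542), and 129 to 136 and 49 to 53 on-off genes.
The replicate block called 15229 genes. Same-numbered libraries deviated from their group means with correlations of 0.526, -0.112 and 0.391. NT1 replicates 1 and 3 correlated best with the NT2 library of the same number, and NT1 replicate 2 with NT2 replicate 1 (0.167). Deviations from the mean of 3 libraries are tied to each other, so these values cannot settle whether the numbers pair the libraries. Without the genes that lack whole reads, an alternative chosen after seeing the data, 14330 of 18698 were called.
Of 2964 values of named genes under alternatives, 2930 kept their direction and side of the threshold. NRAS lost its call under 6, with limma adjusted p of 0.0933 to 0.163, and MT-ND3 and MT-ND5 lost theirs without a level filter (limma adjusted p = 0.0549 and 0.0542). PRKCI was called under the block (limma adjusted p = 0.0256) and without NT1 replicate 3 (limma adjusted p = 0.0463), CDKN2A under the block (limma adjusted p = 0.00117) and without NT1 replicate 1 (limma adjusted p = 0.0141), and RP11-603J24.9, MT-ATP8 and MT-TK under quantile normalization (limma adjusted p = 0.0157, 0.0314 and 0.0404), the last 2 with a turned sign.
Signs turned for the genes chosen for differences near 0. Quantile normalization gave MT-ATP8 -0.40, MT-TK -0.31, MT-TS2 -0.37 and MT-CYB -0.27, and median-of-ratios scaling gave RP11-603J24.9 0.053. Without 1 library they ranged from -0.10 to 0.20, -0.14 to 0.10, -0.21 to 0.35, -0.058 to 0.087 and, for RP11-603J24.9, -0.031 to 0.035. List medians turned to -0.0092 (airway and alveolar), -0.0049 (glutathione transferases) and -0.0088 (metallothioneins) with no level filter, to 0.45 (fibroblast) at 1 RPKM, to 0.0237 and 0.0171 (aldehyde dehydrogenases) under quantile normalization and median-of-ratios scaling, and to -0.27 (mitochondrial genome) under quantile normalization. The window of chromosome 4 from 40 megabases became 0.14 when shifted by 5 megabases. Of all 233 list and 69 window medians under alternatives, 106 and 47 moved by more than the spread between libraries without turning. The cause of these changes was not tested. Genes of few reads are limited by depth, and the on-off counts say only that reads were under the limit.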
